A study of Mus musculus with 20 samples.

Results

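The mRNAs described here are Tpt1, Naca, Btf3, Gnb2l1, Pabpc1 and Fau, 6 of the 25246 genes counted besides mitochondrial genes and spike-ins. They were chosen by name, as non-ribosomal mRNAs of the 5′ terminal oligopyrimidine (TOP) class, and not by a measured value. They were read in thymic precursors of intraepithelial lymphocytes (IELPs), CD4- and CD8-depleted, TCRb+ cells that the study sorted as NK1.1- (the submitted design text writes NK1.1+). All mice carried TBGR, a T-bet ZsGreen reporter. The TBGR mouse (wild type for C-myc, 4 wk old) gave 8 libraries, the TBGR C-myc fl/fl mouse (2 wk, floxed alleles without Cre) 8, and the TBGR C-myc D/DCd4 mouse (2 wk, the floxed C-myc alleles deleted by Cre under the Cd4 promoter) 4. Cells were sorted by CD122 and reporter level into 4 gates. The CD122-T-bet- gate lacked both, the CD122+T-bet- gate had CD122 alone, and 2 gates positive for CD122 had intermediate (T-bet int) or high (T-bet high) reporter levels. The D/DCd4 libraries hold only the gates without reporter signal. Of 1920 wells, 1413 cells held at least 2000 transcripts and were kept. By the design text each genotype was 1 mouse, so cells and libraries are not replicates of a condition: every value is a description of these mice, a range is over libraries, and no difference between groups was tested. The TBGR mouse differed from the other 2 in age, and the study names more than 1 sequencer, so that genotype, age and run cannot be told apart between them.

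A TOP mRNA starts at a C that is followed by an unbroken run of pyrimidines. The run lets mTOR, a growth-linked kinase, set how much of the mRNA is translated, in part through LARP1, a protein that binds the capped start of these mRNAs and also keeps them stable. The class holds the mRNAs of nearly all ribosomal proteins and of translation factors, so growing or activated lymphocytes raise the output of the whole set at once. Transcript counts, as here, measure the amount of mRNA and not its translation. Of the 6 genes, Tpt1 encodes the translationally controlled tumour protein, Naca and Btf3 the alpha and beta subunits of the nascent polypeptide-associated complex, which meets new chains at the ribosome exit, Gnb2l1 (now Rack1) a scaffold protein of the small ribosomal subunit, Pabpc1 the cytoplasmic poly(A)-binding protein, and Fau a fusion of a ubiquitin-like protein with a small-subunit ribosomal protein.

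The annotated starts of 5 of the 6 genes were found in RefSeq's promoter sequences for GRCm38.p6, the mouse reference; Pabpc1 is named only. The stretch from 10 bases before to 20 bases after each start is given below, 5′ to 3′, because the pyrimidine run at this place is what names the class. Capitals mark a run that opens with C at the annotated first base and goes on with at least 4 pyrimidines.
Gnb2l1, chr11:48800350-48800379, plus strand: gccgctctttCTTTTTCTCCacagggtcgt
Fau, chr19:6057937-6057966, plus strand: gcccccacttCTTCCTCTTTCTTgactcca
Tpt1, chr14:75845246-75845275, plus strand: cgctgacgacagttccgggggagccgcgga
Naca, chr10:128035336-128035365, plus strand: tcgttctcttaaagaggaaacccggacgcc
Btf3, first start, chr13:98316987-98317016, minus strand: tctggaggaagtggcgtcgcgttacttccg
Btf3, second start, chr13:98316948-98316977, minus strand: tagctgccatcttgcgtccccgcgtgtgtg
Gnb2l1 and Fau held such a run, of 10 and 13 bases, at the annotated first base. The 4 other windows held none there, which says only that these letters are not at the annotated base. A run by this rule stood at 2 of the 6 member starts, at 15 of 80 starts of genes for ribosomal proteins (symbols Rps and Rpl; 18.8%), and at 823 of all 32851 starts (2.51%). With the run, now a C and at least 6 pyrimidines, allowed to begin within 10 bases of the annotated start, it was again 2 of 6 member starts, against 32 of 80 Rps and Rpl starts and 12.2% of all starts.

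The 28 library populations (a library, or the wells of 1 gate in a library that held 2 gates) had 94268 to 775264 transcripts from 22 to 94 kept cells. A set of 16 genes that mark low-quality cells, 84.1% of it Gm10800 and also holding Kcnq1ot1, took 8.62% to 63% of the transcripts of a library population, and the study's methods remove such genes before scaling. Levels are given as counts per 1000000 transcripts (CPM), and ratios therefore also with this set left out of the total. In the C-myc fl/fl mouse this share was 57.7% in the CD122+T-bet- wells of library 4 against 26.3% to 29.1% in the other 3, 42.9% and 46.1% in library 8 against at least 22.9% in the other T-bet+ wells, none of which reached the share of library 8, and 59.3% and 63% in the CD122- wells of libraries 2 and 4 against 38.2% in library 1. Markers followed the sort labels: 8 T cell genes summed to 4124 to 7487 CPM in the gates, Il2rb (CD122) stood at 2.61 to 9.88 CPM in the CD122- gates and 222 to 515 CPM in the CD122+ gates, and Tbx21 (T-bet) reached 165 CPM in the TBGR T-bet high gate from 0 to 6.60 CPM in the T-bet- gates. B cell genes stayed at or under 120.0 CPM and myeloid genes at or under 224 CPM. Myc, the deleted gene, was at 44.5 and 9.96 CPM in the CD122+T-bet- libraries of the D/DCd4 mouse and at 73.8, 125, 135 and 10.6 CPM in those of the C-myc fl/fl mouse, while the CD122-T-bet- libraries held 5 and 14 against 3 to 14 transcripts of it. The genotypes overlapped in both gates, from few transcripts a library, and 3′ tags that lie outside the deleted part check nothing.

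**Figure D1:**
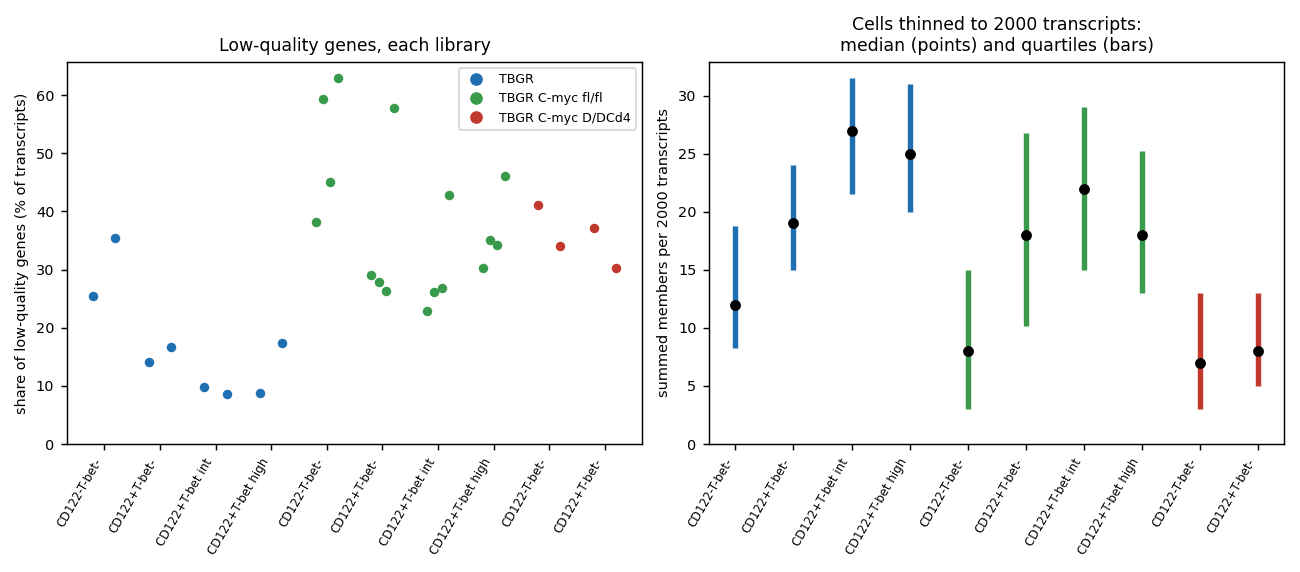
Left, the share of transcripts (%) from the 16 low-quality genes in each library population, coloured by mouse. Right, member transcripts per 2000 transcripts of a cell after thinning, with the median (points) and quartiles (bars) over cells. The shares ran from 8.62% to 63%, and the medians from 7.0 in the CD122- gate of the C-myc D/DCd4 mouse to 27 in T-bet int cells of the TBGR mouse.

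Across all kept cells 37710 transcripts of Tpt1 were counted, 23110 of Pabpc1, 12221 of Gnb2l1, 4777 of Naca, 2749 of Btf3 and 73 of Fau. These totals are not compared between genes, because reads matching several loci were discarded, and how many reads each member lost is not known. Fau was at or under 3 transcripts, taken as the floor, in most libraries. It is described on its own, and counts of members below are of the 5 with at least 100 transcripts in a group.

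In the TBGR mouse the 6 members summed to 6832 CPM (libraries 6301 and 7378) for the CD122-T-bet- gate and 10149 CPM (9987 and 10295) for the CD122+T-bet- gate. They summed to 13030.4 CPM (12788 and 13263) for the T-bet int gate and 12605 CPM (12581 and 12616) for the T-bet high gate. The first 3 gates thus formed a rising order without overlap of libraries, and the T-bet high gate lay just under the T-bet int gate. In this mouse, as in the D/DCd4 mouse, each gate had its own 2 libraries and shared none with another gate. Gate and library therefore cannot be told apart in the steps of these mice. The 81 Rps and Rpl genes moved alongside, from 75379 CPM over 108206 and 141132 to 146726 CPM. For every 1000 Rps and Rpl transcripts there were 90.6, 93.8, 92.3 and 85.9 member transcripts in the same order of gates, so the share of the members in the total changed far more than their size relative to the ribosomal protein mRNAs.

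**Figure D2:**
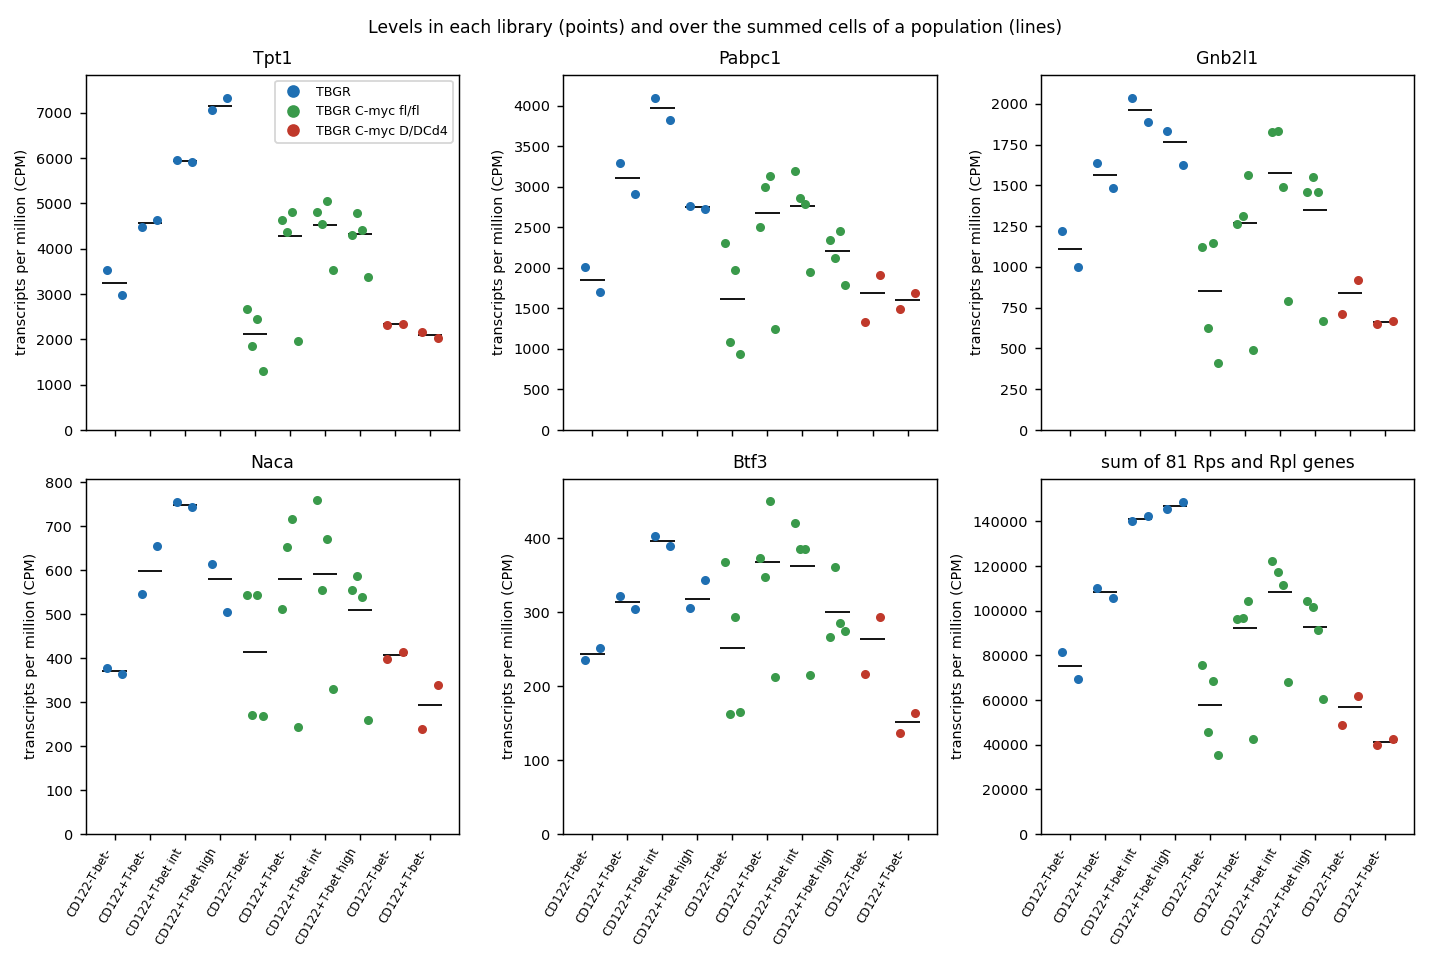
Level in CPM of 5 members and of the summed 81 Rps and Rpl genes. Points are libraries, lines are the values over all kept cells of a gate, and colours are the 3 mice. Tpt1 reached 7149 CPM in the TBGR T-bet high gate, where Pabpc1 had fallen back to 2745 CPM from 3964 CPM in the T-bet int gate.

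At the CD122 step of the TBGR mouse, from T-bet- cells without CD122 to those with it, all 5 members were higher in both CD122+ libraries than in both CD122- libraries. The share of all genes whose libraries lay apart, whatever the ratio, is not given here or in the later steps. Such counts alone therefore do not set the members apart. Pabpc1 measured 2011 and 1699 CPM in the CD122- libraries and 3289 and 2908 CPM in the CD122+ libraries, a log2 ratio of 0.75 (0.53 to 0.95 over pairs of libraries). Naca measured 378 and 364 CPM against 547 and 656 CPM, a log2 ratio of 0.69 (0.53 to 0.85). Tpt1 (0.49), Gnb2l1 (0.50) and Btf3 (0.36) had smaller ratios. Taking as called a gene with a log2 ratio of at least 0.5 and libraries that did not overlap, 2 of the 5 members were called higher, Pabpc1 and Naca, with Gnb2l1 and Tpt1 just under the limit. The same rule called 33.4% of the 2651 genes with enough transcripts higher and 5.77% lower, whose median log2 ratio was 0.34, so a count of 2 in 5 was near the background. The sum rose by 0.57 on the log2 scale, against 0.29 with the low-quality genes left out of the total, when none of the members was called (16.7% of genes higher and 11.4% lower). Beside this step the low-quality share fell from 25.4% and 35.5% to 14.1% and 16.6%, the 8 cell cycle genes went from 238 to 1221 CPM (177 to 299.7 and 1106 to 1325 over libraries), and 7 genes of double positive thymocytes went from 2057 to 179 CPM. Their part in the result was not tested. Over Rps and Rpl transcripts, Pabpc1 still stood at 0.22 (0.15 to 0.29), while Tpt1 and Gnb2l1 each stood at -0.03.

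In the step to T-bet int cells the members moved by nearly equal amounts. Their log2 ratios were 0.38 for Tpt1, 0.35 for Pabpc1, 0.34 for Btf3, 0.33 for Gnb2l1 and 0.32 for Naca, and each was higher in both T-bet int libraries than in both T-bet- libraries. None reached 0.5, and 0 of 5 were called against 13.4% of 2807 genes higher, 11.7% lower and a median of 0.07 for all genes. The Rps and Rpl genes had a ratio of 0.38, so the quotient of members to Rps and Rpl transcripts changed by -0.02 (-0.07 to 0.02). Without the low-quality genes in the total the ratio of the sum was 0.26 (0.36 with them), again with 0 of 5 called (9.08% of genes higher and 15.8% lower).

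The step to T-bet high cells in the TBGR mouse split the members. Tpt1 stood higher still, going from 5965 and 5913 CPM to 7067 and 7316 CPM, a log2 ratio of 0.27 (0.24 to 0.31). Pabpc1 fell from 4097 and 3825 CPM to 2756 and 2724 CPM, a log2 ratio of -0.53 (-0.59 to -0.47). Naca (-0.37), Btf3 (-0.32) and Gnb2l1 (-0.15) also stood lower in both T-bet high libraries than in both T-bet int libraries. The sum hid this, since it changed by only -0.05, and Tpt1 went from 45.6% to 56.7% of the member transcripts. Pabpc1 was the 1 member called lower, with 30.5% of 2387 genes called lower and 10.8% higher by the same rule and a median of -0.22 for all genes, and its ratio was -0.49, short of the limit, without the low-quality genes in the total (28.3% of genes lower and 11.8% higher). Tpt1 was not called, because 0.27 is under 0.5.

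Read against Rps and Rpl transcripts, which does not depend on the total, the members split in the same way. Pabpc1 dropped from 29.2 and 26.9 to 18.9 and 18.3 transcripts per 1000 Rps and Rpl transcripts, a log2 change of -0.59 (-0.68 to -0.51), and these were its lowest values of all 28 library populations. Tpt1 went from 42.6 and 41.6 to 48.5 and 49.1 per 1000, a log2 change of 0.21. The number of Tpt1 transcripts per Pabpc1 transcript was 2.56 and 2.69 in the TBGR libraries of the T-bet high gate, 1.37 to 1.75 in the 6 other TBGR libraries, and 1.80 to 2.26 in the 4 T-bet high populations of the C-myc fl/fl mouse, whose other gates reached 1.86. Cell cycle genes went over this step from 2089 to 359 CPM (182 and 715 CPM in the T-bet high libraries). The 3 genes listed as NKT cell markers, Zbtb16, Klrb1c and Cd1d1, summed to 629.9 CPM against 113 CPM. The study reports Klrb1c, the gene of NK1.1, in its T-bet high cluster of IELPs, so this sum does not by itself measure NKT cells. The part of the cell cycle genes and the listed NKT cell markers in the result was not tested.

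**Figure D3:**
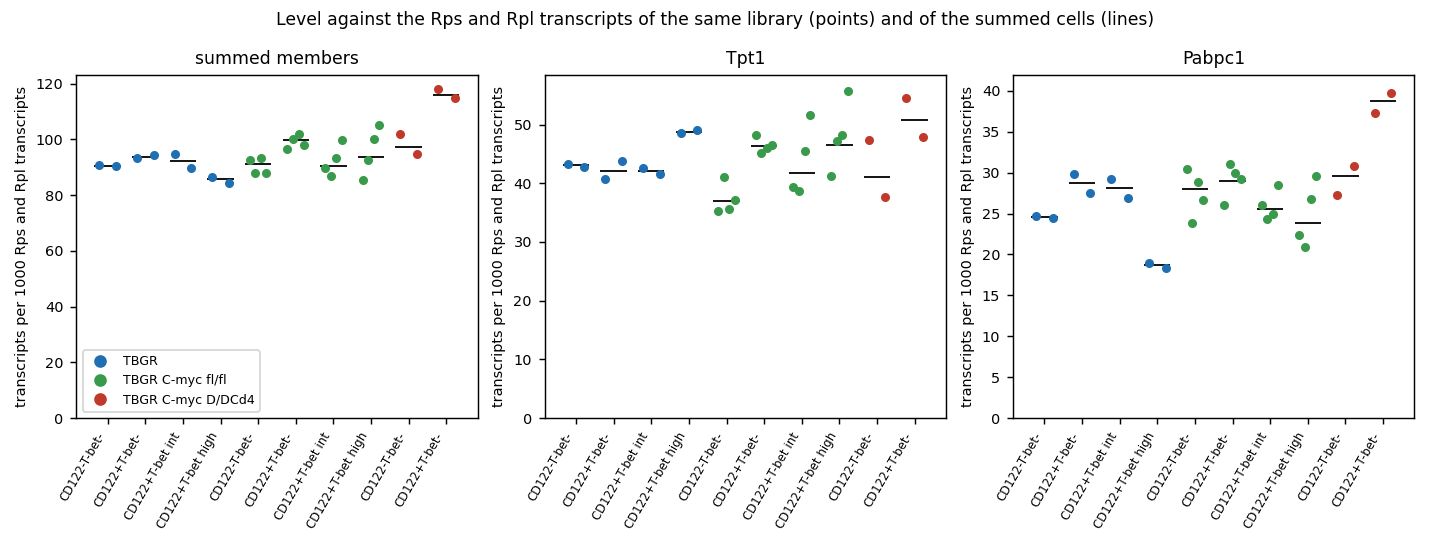
Transcripts of the summed members, of Tpt1 and of Pabpc1 per 1000 Rps and Rpl transcripts. Points are libraries and lines the values over all kept cells of a gate. Pabpc1 was lowest in the TBGR T-bet high gate (18.9 and 18.3) and highest in the CD122+ gate of the C-myc D/DCd4 mouse (37.3 and 39.7).

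For the C-myc fl/fl mouse the T-bet- cells with and without CD122 shared 4 libraries, so the gates were compared within a library. Tpt1 measured 2681, 1865, 2446 and 1311 CPM in the CD122- cells of libraries 1 to 4 and 4637, 4359, 4809 and 1973 CPM in their CD122+ cells, higher in all 4, with a log2 ratio of 1.01 (0.59 to 1.22). Pabpc1 (0.73), Gnb2l1 (0.58) and Btf3 (0.55) were also higher in all 4 libraries. Naca (0.49) was higher in 2 of 4. By the rule of at least 0.5 and the same direction in every library, 4 of 5 members were called higher, against 44.7% of 952 genes higher, 7.46% lower and a median of 0.63.

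In the same libraries the low-quality share was 38.2% to 63% in CD122- cells and 26.3% to 57.7% in CD122+ cells, lower in the CD122+ cells of all 4. Genes of double positive thymocytes went from 732 to 75.2 CPM, cell cycle genes from 1002 to 1692 CPM and gamma delta T cell genes from 569 to 397 CPM (173 to 1139 and 189 to 696 over libraries), and the part of these was not tested. With the low-quality genes out of the total, the ratio of the sum was 0.33 in place of 0.80, and 1 member, Tpt1, was called higher (12.7% of genes higher and 9.98% lower), at a log2 ratio of 0.53 (0.40 to 0.59). Tpt1 was also higher against Rps and Rpl transcripts, going from 35.3 to 41 per 1000 in CD122- cells to 45.1 to 48.2 per 1000 in CD122+ cells, without overlap. Leaving out library 2 lowered the number called on the full total from 4 to 1, and the share of all genes called without it is not given. The 12 CD122- cells with the most transcripts, of 120, held 22.7% of the transcripts and 36.6% of the member transcripts. The members stood at 8460.3 CPM in them and 4311 CPM in the other CD122- cells. As a mean over cells the members were at 5137 CPM in CD122- and 9209 CPM in CD122+ cells.

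In the T-bet high step of the C-myc fl/fl mouse, again within 4 libraries, no member reached the limit. The sum stood at 9823 CPM (6816 to 11010.3) in T-bet int cells and 8689 CPM (6375 to 9412) in T-bet high cells, a log2 ratio of -0.18 (-0.30 to -0.10), beside a median of -0.22 for all genes. Pabpc1 (-0.32) and Gnb2l1 (-0.22) were lower in all 4 libraries and Tpt1 (-0.07) in 3 of 4, while 17.5% of 1108 genes were called lower and 5.96% higher (9.30% each without the low-quality genes in the total, where again no member was called). Relative to Rps and Rpl transcripts Tpt1 was higher in all 4 (0.16; 0.07 to 0.29) and Pabpc1 in 2 of 4 (-0.10). The T-bet high step of Pabpc1 was thus -0.53 in the TBGR mouse and -0.32 in the C-myc fl/fl mouse, and that of Tpt1 0.27 and -0.07. Without the low-quality genes in the total Tpt1 stood at 0.31 and 0.08, the latter with 2 of 4 libraries above 0, so both were then above 0. The difference between mice was not tested. Without library 8 the step was -0.20 for the sum, -0.36 for Pabpc1 and -0.08 for Tpt1 on the full total.

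**Figure D4:**
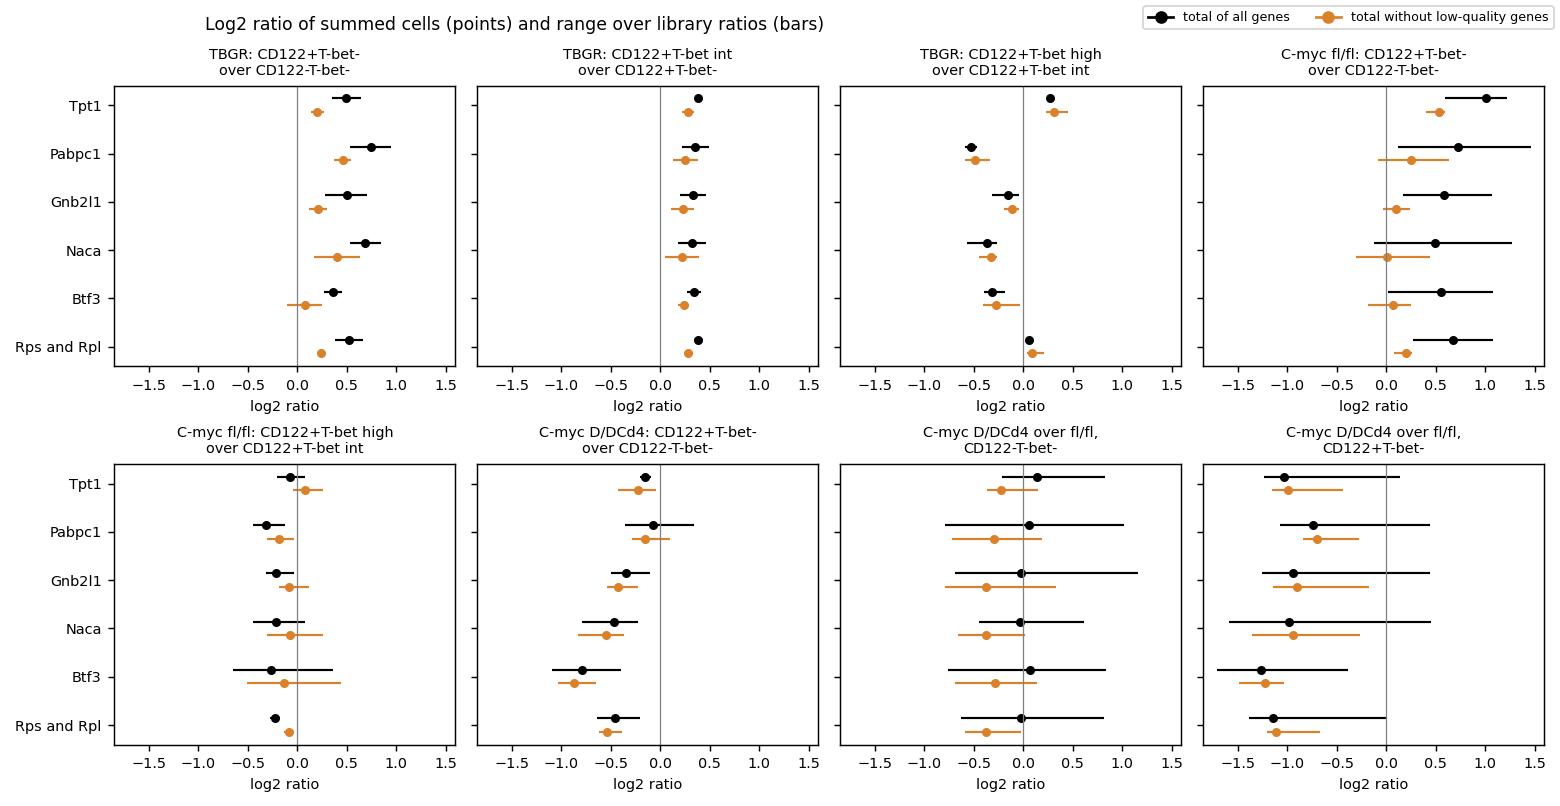
Log2 ratios of 5 members and of the summed Rps and Rpl genes in 8 comparisons. Points are ratios over all kept cells, bars run from the lowest to the highest ratio between libraries, black uses the total of all genes and orange the total without low-quality genes. In C-myc D/DCd4 over C-myc fl/fl CD122+T-bet- cells, all 5 members lay below 0 on both totals (-0.74 to -1.27 in black), with bars in black that crossed 0 for all but Btf3.

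The C-myc D/DCd4 mouse was read against the C-myc fl/fl mouse of the same age in the gates that both had. In CD122+T-bet- cells the sum was 4685 and 4901 CPM in the D/DCd4 libraries and 9284, 9666, 10673 and 4158 CPM in fl/fl libraries 1 to 4, a log2 ratio of -0.93 (-1.19 to 0.24). The D/DCd4 libraries lay below fl/fl libraries 1 to 3 and above library 4, the library with the high low-quality share. Tpt1 stood at 2172 and 2041 CPM against 4637, 4359, 4809 and 1973 CPM, and Pabpc1 at 1486 and 1690.2 CPM against 2498, 2992, 3126 and 1241 CPM, both in the same arrangement. The 5 members had log2 ratios of -1.27 for Btf3, -1.03 for Tpt1, -0.98 for Naca, -0.94 for Gnb2l1 and -0.74 for Pabpc1, beside -1.15 for the Rps and Rpl genes and a median of -0.02 for all genes.

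Btf3 was the 1 member whose libraries did not overlap on the full total, at 137 and 164 CPM against 212 to 451 CPM, and so the 1 member called lower, where the rule called 16.7% of 1147 genes lower and 27.5% higher. Without fl/fl library 4, 5 of 5 members were called lower, but the share of all genes called without that library is not given. With the low-quality genes out of the total and library 4 kept, 5 of 5 were also called lower, against 26.4% of genes lower and 28.1% higher, and the sum stood at -0.89 (-1.04 to -0.40). Cells thinned to 2000 transcripts each gave -0.92 for the sum, but with overlapping libraries for every member, Btf3 included (-1.07; -1.46 to 0.26), and 0 of 5 called. After thinning 121 of 1147 genes were called lower and 294 higher. The 8 cell cycle genes were at 461 CPM in these D/DCd4 cells and at 1692 CPM in the fl/fl cells. Markers of other cells also differed without overlap of libraries, with 7 genes of double positive thymocytes at 296 against 75.2 CPM and 4 genes of gamma delta T cells at 1061 against 397 CPM. Their part in the result was not tested.

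The ribosomal protein mRNAs were lower by more than the members were. There were 118 and 115 member transcripts per 1000 Rps and Rpl transcripts in the D/DCd4 CD122+T-bet- libraries, above all other 26 library populations, which ran from 84.5 to 105. Of the members Pabpc1 differed the most, with 37.3 and 39.7 per 1000 against 26 to 31 in the fl/fl CD122+T-bet- cells, a log2 difference of 0.41 (0.27 to 0.61). Gnb2l1 (0.21), Naca (0.17) and Tpt1 (0.13) pointed the same way and Btf3 the other (-0.12, but 0.12 after thinning), each except Gnb2l1 with at least 1 pair of libraries in the opposite direction. The quotient of the sum differed by 0.22 over all cells and by 0.29 when each cell counted alike.

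In CD122-T-bet- cells the 2 genotypes overlapped for every member. The sum was 4985 and 5875 CPM in the D/DCd4 libraries and 7016, 4009, 6405 and 3092 CPM in the fl/fl libraries, a log2 ratio of 0.07 (-0.49 to 0.93), and 0 of 5 members were called, where 32.7% of 924 genes were called higher and 2.27% lower. Since all genes had a median of 0.48 here, the members lay below it, and with the low-quality genes out of the total the sum stood at -0.29, again with 0 of 5 called (6.49% of genes lower and 17.7% higher). Over Rps and Rpl transcripts the sum stood at 0.09, above 0 in all 8 pairs of libraries (0.02 to 0.21), and at 0.22 with each cell counted alike. As a mean over cells the members were at 4467 CPM in the D/DCd4 and 5137 CPM in the fl/fl cells, so the direction of the sum depended on how cells were weighted.

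Within the D/DCd4 mouse the members did not rise together at the CD122 step. Btf3 measured 217 and 294 CPM in CD122- and 137 and 164 CPM in CD122+ libraries, a log2 ratio of -0.79 (-1.09 to -0.40), and was the 1 member called lower, beside 24.9% of 1117 genes lower and 28.9% higher. Without the low-quality genes in the total Naca was called too (-0.55), beside 30.1% of genes lower. The sum went from 4985 and 5875 CPM to 4685 and 4901 CPM, a log2 ratio of -0.20 (-0.33 to -0.02), where the TBGR and C-myc fl/fl mice had 0.57 and 0.80. The median of all genes differed too, at -0.05 in the D/DCd4, 0.34 in the TBGR and 0.63 in the C-myc fl/fl mouse. Less this median the sum stood at -0.15, 0.23 and 0.17 in the same order. The direction of the sum in the D/DCd4 mouse depended on how cells were weighted. The 13 CD122- cells with the most transcripts, of 128, held 29.5% of the transcripts and 47.6% of the member transcripts (8922 CPM, against 4107 CPM in the other cells). With each cell counted alike the ratio of the sum was 0.13 (0.10 to 0.18), that of Btf3 was -0.25 with overlapping libraries, and that of Pabpc1 was 0.42 (0.26 to 0.63). The CD122- cells of this mouse also had the highest cell cycle level of all gates, 2530.4 CPM against 461 CPM in CD122+ cells, and the genes of double positive thymocytes stood at 1451 against 296 CPM. Their part was not tested. The 2 comparisons that use the D/DCd4 CD122+T-bet- cells share those libraries.

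Cell by cell, after each was thinned to 2000 transcripts, the median of member transcripts was 12, 19, 27 and 25 in the 4 gates of the TBGR mouse, in the order given above. In the C-myc fl/fl mouse the medians were 8.0, 18, 22 and 18, and in the D/DCd4 mouse 7.0 and 8.0. The quartiles of neighbouring gates overlapped throughout. In TBGR T-bet high cells the median was 15 for Tpt1 and 5.0 for Pabpc1, against 12 and 7.0 in T-bet int cells, so the split of these mRNAs was also seen in the typical cell.

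Fau is listed at 2 and 2 transcripts in the TBGR CD122-T-bet- libraries, 5 and 3 in CD122+T-bet-, 5 and 19 in T-bet int and 18 and 15 in T-bet high libraries. The T-bet high libraries were at 38.2 and 64.3 CPM, above all 6 other TBGR libraries, and the 2 T-bet int libraries had 95% counting intervals that did not overlap (2.46 to 17.7 and 18.1 to 46.9 CPM). In the 12 libraries of the other mice 4 transcripts were found in all, and the count was 0 in 16 of their 20 library populations, where 0 allows up to 6.43 to 31.8 CPM by a limit of 3 counts. No ratio is given for those groups. How many Fau reads were dropped for matching other loci is not known, so its counts give no level of the mRNA.

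The other genes of the TOP class that were listed are 15 mRNAs of elongation and initiation factors and related proteins. Over the 3 steps of the TBGR mouse 4, 2 and 0 of the 14 with enough transcripts were called higher and 0, 0 and 7 lower, with medians of 0.44, 0.27 and -0.41. Of all genes 33.4%, 13.4% and 10.8% were called higher and 5.77%, 11.7% and 30.5% lower in these steps. Nap1l1, a histone chaperone, rose the most in the first step (1.2) and fell the most in the last (-1.62), and Eef2, the translocation factor of elongation, had the highest value in the last (0.31, not called). In D/DCd4 over fl/fl CD122+T-bet- cells 4 of 14 were called lower and none higher, beside 16.7% of all genes lower and 27.5% higher, with a median of -0.84, from -1.82 for Npm1, a nucleolar protein, to 0.14 for Eif3f, a subunit of initiation factor eIF3. Within the D/DCd4 mouse 6 of 13 were called lower in CD122+ cells (median -0.46) and none higher, beside 24.9% of all genes lower and 28.9% higher.

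Genes that control the class, those of mTOR, its partners and LARP proteins, mostly had under 100 transcripts a group, with 2 to 10 of 18 reaching that number in a comparison. Larp1 had a log2 ratio of 0.32 in the T-bet high step of the TBGR mouse, the highest of 8 with enough transcripts. In D/DCd4 over fl/fl CD122+T-bet- cells it had one of -1.22, the lowest of 4 and the 1 called lower. Of all genes 16.7% were called lower and 27.5% higher there, so 1 of 4 does not set this list apart. Of 13 partners and paralogs of the members, 7 had enough transcripts in the first TBGR step, where Pabpc4, a paralog of Pabpc1, rose by 1.6 and was the 1 called. In that step 33.4% of all genes were called higher and 5.77% lower, so 1 of 7 was not above the background. Mcl1, whose protein is bound by the Tpt1 product, had a log2 ratio of 0.89 in D/DCd4 over fl/fl CD122+T-bet- cells and 1.16 between the CD122+ and CD122- cells of the D/DCd4 mouse, opposite in sign to Tpt1 in both. These comparisons share the D/DCd4 CD122+T-bet- libraries. Of all genes 27.5% and 28.9% were called higher in them, with medians of -0.02 and -0.05. In the CD122 step of the C-myc fl/fl mouse Mcl1 and Tpt1 were both above 0 (0.75 and 1.01), beside a median of 0.63 for all genes. A link between Mcl1 and Tpt1 was not tested.

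Across the 28 library populations the log2 level of the summed members followed that of the Rps and Rpl genes, with a Pearson correlation of 0.98 (0.96 without the low-quality genes in the total). The points share libraries, mice and the low-quality share, which itself correlated at -0.84 with Tpt1, so this is a description. Among 2769 genes with at least 500 transcripts, those most like the sum included Rpl21 (0.974) and Rpl32 (0.966), and 37 of the 50 most alike were Rps or Rpl genes. For Tpt1 they included Rpl9-ps6 and Rpl21. They were for Gnb2l1 Gm15013, Rpl30 and Rps25, for Pabpc1 Rpl3, Gnb2l1 and Rps26, for Naca Rps3a1, Gm28037 and Gnb2l1, and for Btf3 Eef1b2, Rps6 and Rpl5. Tpt1 and Gnb2l1 had the closest match to the summed Rps and Rpl genes, at 0.96 each, and Btf3 the loosest at 0.85. Without the low-quality genes in the total these were 0.90 for Tpt1 and Gnb2l1, 0.78 for Pabpc1, 0.67 for Naca and 0.62 for Btf3, and 0.28 for Btf3 within the C-myc fl/fl mouse (16 library populations).

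**Figure D5:**
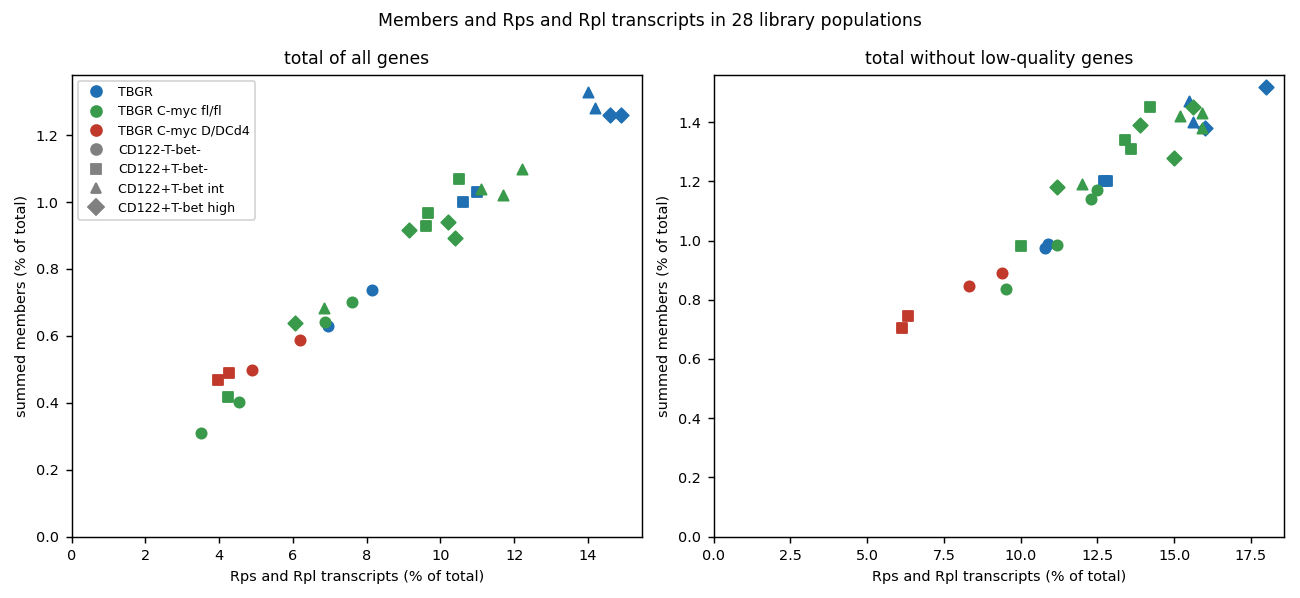
Summed members against Rps and Rpl transcripts, both in % of transcripts, in the 28 library populations, with the total of all genes (left) and without low-quality genes (right). Colours are mice and shapes are gates. The points rise along a common line, and on the left the 2 CD122+T-bet- libraries of the C-myc D/DCd4 mouse (3.98% and 4.26% of Rps and Rpl transcripts) lie above the C-myc fl/fl library populations of nearly the same share (4.25% and 4.55%).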

How the data were processed

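Single IELPs had been sequenced by CEL-Seq2, which tags the 3′ end of each mRNA with a cell barcode and a molecular identifier (UMI) of 6 bases. The authors aligned reads with bwa 0.6.2-r126 after bcl2fastq 2.17.1.14 (versions from the submitters' processing notes) to the GENCODE VM9 mouse transcriptome, kept sense reads, discarded reads matching several loci, merged overlapping loci and corrected UMI counts for chance collisions. The deposited values are therefore estimated counts of transcripts per gene and cell barcode, with no normalization; here they were rounded to whole transcripts. Genes that share sequence with other loci are uncertain. Each table holds 192 barcodes, 96 of them with a sorted cell.

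Cells with a sorted population in the plate description and at least 2000 transcripts, mitochondrial genes and ERCC spike-ins left out, were kept (1413 of 1920). No doublet caller was run, since wells were sorted singly. No kept cell held over 2% Kcnq1ot1, and no kept cells were identical; 90 of 190 library pairs shared all 96 plate barcodes and the other 100 none. Transcripts were summed per library and population and scaled to CPM with the sums over all genes. Ratios were taken with 0.5 transcripts added to each sum. A gene was called where its log2 ratio was at least 0.5 in size and libraries did not overlap (within libraries: all 4 ratios on 1 side of 0), among genes with at least 100 transcripts in either group. Counting intervals and floors (3 counts) cover counting error only. With 1 mouse per genotype no difference between groups was tested; single libraries were screened by Dixon's criterion. The procedure was tested on simulated data.

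The members and gene lists were chosen with earlier results of these data known. Named were the 6 members, the Rps and Rpl sum, Myc, the genes with the highest and lowest ratio in each list, and the 3 genes most alike to each member (Pearson correlation of log2 levels, at least 500 transcripts), of which 1 gene is not reported here. Il2rb and Tbx21 checked the sort labels. Alternatives were a Kcnq1ot1 filter, thinning to 2000 transcripts, each cell counted alike, limits of 1000 or 3000 transcripts per cell and 10 per gene, unrounded counts, TMM and median-of-ratios scaling, a total without Rps and Rpl genes, each library left out and, chosen after seeing the data, a total without low-quality genes. That set holds Kcnq1ot1, Gm10715, Gm42418, Gm10800 and genes correlated with them above 0.65. Of the marker lists, gamma delta T cell genes summed to 397 to 1337 CPM in the gates. Figures and values were made with Python 3.11.15, numpy 2.4.6, pandas 2.3.3, scipy 1.17.1 and matplotlib 3.10.9.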

Additional observations from a re-analysis of the deposited data

Results flagged for a closer look

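In the C-myc fl/fl mouse, where a gate has 4 libraries, 1 library stood far from the other 3 by Dixon's criterion in 5 of 66 groups of values tested; chance gives about 1 in 20. In CD122+T-bet- cells library 4 had 1973 CPM of Tpt1 (the others 4359 to 4809) and 42453 CPM of Rps and Rpl genes (96181 to 104532). In CD122+T-bet high cells library 8 had 259 CPM of Naca (539 to 586), 668 CPM of Gnb2l1 (1458 to 1554) and 6375 CPM of the summed members (8933 to 9412). These library populations also had low-quality shares of 57.7% and 46.1%, the highest of their gates, and the part of that share was not tested.

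The CD122 step had all library ratios on one side of 0 in 1 mouse and on the other side in the D/DCd4 mouse, and the difference was not tested. Between the C-myc fl/fl and D/DCd4 mice the log2 ratios differed by 1.16 for Tpt1 (1.01 against -0.15), 1.34 for Btf3, 0.92 for Gnb2l1, 1.0 for the sum and 1.14 for the Rps and Rpl genes. Between the TBGR and D/DCd4 mice they differed by 0.64 for Tpt1, 1.16 for Naca, 1.15 for Btf3, 0.84 for Gnb2l1, 0.77 for the sum and 0.98 for the Rps and Rpl genes. Without the low-quality genes in the total, all libraries no longer lay on opposite sides for Btf3 (against either mouse) or for Gnb2l1 (against C-myc fl/fl), and the differences from C-myc fl/fl were 0.76 for Tpt1, 0.94 for Btf3, 0.53 for Gnb2l1, 0.61 for the sum and 0.74 for the Rps and Rpl genes. Those from TBGR were 0.43 for Tpt1, 0.95 for Naca and for Btf3, 0.64 for Gnb2l1, 0.56 for the sum and 0.77 for the Rps and Rpl genes. The median of all genes in the CD122 step was 0.63 in the C-myc fl/fl, 0.34 in the TBGR and -0.05 in the D/DCd4 mouse. It was 0.15, 0.05 and -0.13 without the low-quality genes. The differences above include this shift of all genes. For the sum, the D/DCd4 ratio turned from -0.20 to 0.13 when each cell counted alike. In the T-bet high step the Rps and Rpl genes were on opposite sides in the TBGR (0.06) and C-myc fl/fl mice (-0.23), a difference of 0.28 (0.18 without the low-quality genes) that was also not tested.

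The 1920 barcodes without a cell, which no comparison used, held 386 member transcripts, 0.453% of the 85233 in barcodes with a cell. None of these barcodes reached 2000 transcripts; the highest had 712.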

How the results depend on the processing

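No called value changed sign under the alternatives, whereas uncalled sums near 0 did (the D/DCd4 CD122 step and both T-bet high steps, with values below, and D/DCd4 over fl/fl CD122- cells, from 0.07 to -0.29 without low-quality genes). No paired analysis was possible because no model was fitted and replicate numbers name libraries in accession order only; the gates that shared C-myc fl/fl libraries were compared within them. Values that moved by more than the spread between libraries, or counts that moved by over 1.5 times, are given by setting; the cause was not tested.

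With low-quality genes out of the total the sum stood at 0.29 (CD122 step, TBGR), 0.26 (T-bet int step, TBGR), -0.01 (T-bet high step, TBGR), 0.33 (CD122 step, C-myc fl/fl) and -0.03 (T-bet high step, C-myc fl/fl), and 0 members were called in the CD122 and T-bet high steps of TBGR, 1 in the CD122 step of C-myc fl/fl, 2 in the CD122 step of the D/DCd4 mouse and 5 in D/DCd4 over fl/fl CD122+T-bet- cells. Median-of-ratios scaling gave, for the same 5 steps, 0.26, 0.30, 0.17, 0.28 and 0.03, with 0 members called in both CD122 steps and in the TBGR T-bet high step, and 2 and 5 in the same D/DCd4 comparisons. Of all genes it called 418 of 2651 higher and 328 lower (CD122 step, TBGR), 104 of 952 and 99 (CD122 step, C-myc fl/fl), and 430 of 2387 and 451 (T-bet high step, TBGR). In the D/DCd4 comparisons it called 299 of 1117 higher and 339 lower, and 296 of 1147 higher and 332 lower. TMM gave 0.32 and 0.38 in the CD122 steps of TBGR (0 called) and C-myc fl/fl (1 called) and 0.01 in the TBGR T-bet high step (0 called), with 2 and 4 called in the D/DCd4 comparisons. Of all genes TMM called 477 of 2651 higher and 274 lower (CD122 step, TBGR), 142 of 952 and 92 (CD122 step, C-myc fl/fl), and 287 of 2387 and 657 (T-bet high step, TBGR). In the D/DCd4 comparisons TMM called 295 of 1117 higher and 350 lower, and 328 of 1147 higher and 275 lower. With the Rps and Rpl genes out of the total, the T-bet int step was 0.41 and the TBGR CD122 step called 4 members, beside 1016 of 2651 genes higher and 135 lower.

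With each cell counted alike the sum stood at 0.45 (T-bet int step, TBGR), -0.09 (T-bet high step, TBGR) and 0.13 (CD122 step, D/DCd4, 0 called), and the sum over Rps and Rpl transcripts at 0.03 (CD122 step, TBGR), 0.16 (CD122 step, D/DCd4), 0.22 and 0.29 (D/DCd4 over fl/fl, CD122- and CD122+). In the D/DCd4 CD122 step this setting called 342 of 1117 genes higher and 153 lower. Thinning to 2000 transcripts gave 0.45 with 2 called and 0.09 with 0 called for the sum in the T-bet int and D/DCd4 CD122 steps, 0 called in D/DCd4 over fl/fl CD122+ cells, and 0.01, 0.06, 0.11, 0.21 and 0.27 over Rps and Rpl transcripts in the CD122 steps of TBGR, C-myc fl/fl and D/DCd4 and in D/DCd4 over fl/fl CD122- and CD122+ cells. Of all genes thinning called 495 of 2807 higher and 395 lower (T-bet int step), 326 of 1117 and 144 (D/DCd4 CD122 step), and 294 of 1147 and 121 (D/DCd4 over fl/fl CD122+ cells). At least 3000 transcripts per cell called 2 members in the D/DCd4 CD122 step and 2 in D/DCd4 over fl/fl CD122+ cells, and at least 1000 called 2 in D/DCd4 over fl/fl CD122+ cells. Of all genes the limit of 3000 called 322 of 1117 higher and 313 lower, and 297 of 1147 higher and 245 lower, in these comparisons. The limit of 1000 called 324 of 1147 higher and 224 lower. A limit of 10 transcripts per gene called 1 member in the T-bet int step of the TBGR mouse, Fau, as higher. In its T-bet high step this limit called 2 members, Fau higher and Pabpc1 lower. The Fau counts give no level of the mRNA, as stated above. Of all genes this limit called 1246 of 10067 higher and 1913 lower (T-bet int step), and 1441 of 9329 higher and 2438 lower (T-bet high step).

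Leaving out 1 library at a time gave ranges of the sum of 0.46 to 0.69, 0.33 to 0.39 and -0.07 to -0.02 (3 TBGR steps), 0.65 to 0.97 and -0.20 to -0.13 (C-myc fl/fl), -0.29 to -0.05 (D/DCd4), -0.08 to 0.25 and -1.04 to -0.83 (D/DCd4 over fl/fl, CD122- and CD122+). Over Rps and Rpl transcripts the ranges were 0.04 to 0.06, -0.06 to 0.01, -0.14 to -0.07, 0.11 to 0.15, 0.02 to 0.10, 0.19 to 0.29, 0.05 to 0.16 and 0.20 to 0.24. Members called ranged from 2 to 4 in the TBGR CD122 step (4 without library 3), from 0 to 2 in its T-bet high step (2 without library 5, 0 without library 7), from 1 to 4 in the C-myc fl/fl CD122 step (1 without library 2), from 1 to 2 in the D/DCd4 step (2 without library 2) and from 1 to 5 in D/DCd4 over fl/fl CD122+ cells (5 without fl/fl library 4, 2 without D/DCd4 library 2). The shares of all genes called with a library left out are not given, so these counts have no background beside them.

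Depth limits Fau, Naca and Btf3, with 73, 4777 and 2749 transcripts in all kept cells, and 1 mouse per genotype limits every comparison. The number of cells with a gene and the amount per cell were not separated in summed values.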
